A study of Mus musculus with 5 samples.

Results

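The phagocyte NADPH oxidase was followed in the liver through 7 genes, namely *Cybb*, *Cyba*, *Ncf1*, *Ncf4*, *Rac2*, *Hvcn1* and *Nox4*. They were chosen by function: subunits of the phagocyte enzyme, its GTPase, its proton channel, and *Nox4* as a form found outside phagocytes. Of the 7 genes, 6 had a row of the array that carries their symbol alone, among 18820 genes with such a row. *Hvcn1*, the voltage-gated proton channel, lay only on 2 rows shared with *Tctn1*, so no level is given for it. Each of the 6 measured genes had 1 row.

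The arrays were Affymetrix Mouse Gene 1.1 ST, one for the liver of each of 5 adult C57BL/6 mice. CSF1-Fc, pig CSF1 fused to the Fc region of pig IgG1a, was given to 3 mice at 1 mg/kg by subcutaneous injection on 4 consecutive days, and 2 mice received phosphate-buffered saline (PBS) on the same schedule, with cull on day 5. CSF1 is the growth factor that drives the survival and proliferation of macrophages through the receptor CSF1R, and the Fc part slows its clearance. Values are log2 of the deposited normalized intensities and are compared only within a gene, because probes of different genes differ in brightness. Differences were tested with limma over all rows, and a gene was called higher or lower at a Benjamini-Hochberg adjusted p under 0.05.

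The phagocyte oxidase moves electrons from NADPH in the cytosol across the membrane to oxygen in the phagosome or outside the cell, which makes superoxide. Its membrane part is cytochrome b558, a pair of gp91phox (*Cybb*) and p22phox (*Cyba*). In a resting cell cytosolic subunits such as p47phox (*Ncf1*) and p40phox (*Ncf4*) stay apart from it, and phosphorylation of p47phox and loading of *Rac2* with GTP bring them to the membrane. The proton channel *Hvcn1* offsets the charge that the electrons carry. Neutrophils, monocytes, macrophages, eosinophils and B cells have this enzyme, and in the liver it is known from Kupffer cells, the resident macrophages. *Nox4* is a related catalytic subunit that pairs with p22phox, needs no cytosolic subunit and releases mainly hydrogen peroxide. In the liver it is known from hepatocytes, stellate cells and endothelial cells. Loss of CYBB, CYBA, NCF1 or NCF4 in people causes chronic granulomatous disease.

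Promoter sequence was available for 4 of the members, *Cybb*, *Cyba*, *Ncf1* and *Nox4*, from RefSeq on GRCm38.p6. They are shown because *Cybb*, *Cyba* and *Ncf1* rose in the CSF1-Fc livers and *Nox4* did not. Each stretch runs 5′ to 3′ from 120 bases before the listed transcription start to 30 bases after it. The whole window of 250 bases before and 50 after the start was searched on both strands for GAGGAA (the purine core bound by PU.1, a myeloid factor), CCAAT (the CCAAT box) and TATAAA (the TATA box), and matches stand in capitals. No match of one overlapped a match of another.
Cybb, chrX:9469295-9469444, minus strand: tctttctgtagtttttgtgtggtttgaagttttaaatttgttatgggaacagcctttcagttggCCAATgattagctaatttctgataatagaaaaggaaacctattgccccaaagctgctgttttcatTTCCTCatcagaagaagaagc
Cyba, chr8:122432911-122433060, minus strand: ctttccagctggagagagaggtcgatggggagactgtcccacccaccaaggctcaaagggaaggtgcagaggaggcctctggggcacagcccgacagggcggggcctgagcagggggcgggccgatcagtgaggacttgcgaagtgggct
Ncf1, chr5:134229596-134229745, minus strand: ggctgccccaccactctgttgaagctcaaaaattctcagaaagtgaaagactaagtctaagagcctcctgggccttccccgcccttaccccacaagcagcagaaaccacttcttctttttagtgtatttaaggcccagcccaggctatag
Nox4, chr7:87246529-87246678, plus strand: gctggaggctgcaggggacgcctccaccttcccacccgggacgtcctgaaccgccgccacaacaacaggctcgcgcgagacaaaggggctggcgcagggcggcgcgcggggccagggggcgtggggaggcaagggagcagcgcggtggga

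In the *Cybb* stretch, a CCAAT box began 56 bases before the start, and GAGGAA lay on the opposite strand, where it reads TTCCTC in the printed sequence, with its first printed base at position 10 after the start. The windows of *Cyba*, *Ncf1* and *Nox4* held none of the 3 motifs. Over the windows of the same 300 bases for all 32851 promoters in the table, 28.3% held GAGGAA, 37.4% held CCAAT and 13.6% held TATAAA. The windows differed in base composition. That of *Cybb* had a GC content of 35.3% with 1 CpG, that of *Ncf1* 54.0% with 3, that of *Cyba* 60.7% with 9 and that of *Nox4* 68.3% with 24, beside medians of 52.7% and 7 over all promoters. The genes that rose together therefore covered both AT-rich and GC-rich starts.

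Of the 6 measured genes, 5 were higher in CSF1-Fc livers, namely *Cybb*, *Cyba*, *Ncf1*, *Ncf4* and *Rac2*, by 4.66-fold to 9.83-fold. In the same comparison 8.34% of the 18820 named genes were higher. *Nox4* was lower, as were 3.95% of named genes. For the 5 higher genes all CSF1-Fc values lay above both PBS values, as for 18.2% of named genes, and for *Nox4* all lay below, as for 29.3%. The arrays measure whole liver, so more cells of a type and more RNA per cell cannot be told apart. With 3 mice against 2, an exact permutation test of a single gene cannot go below p = 0.1, so the calls rest on the variance that limma shares over all rows.

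**Figure D1:**
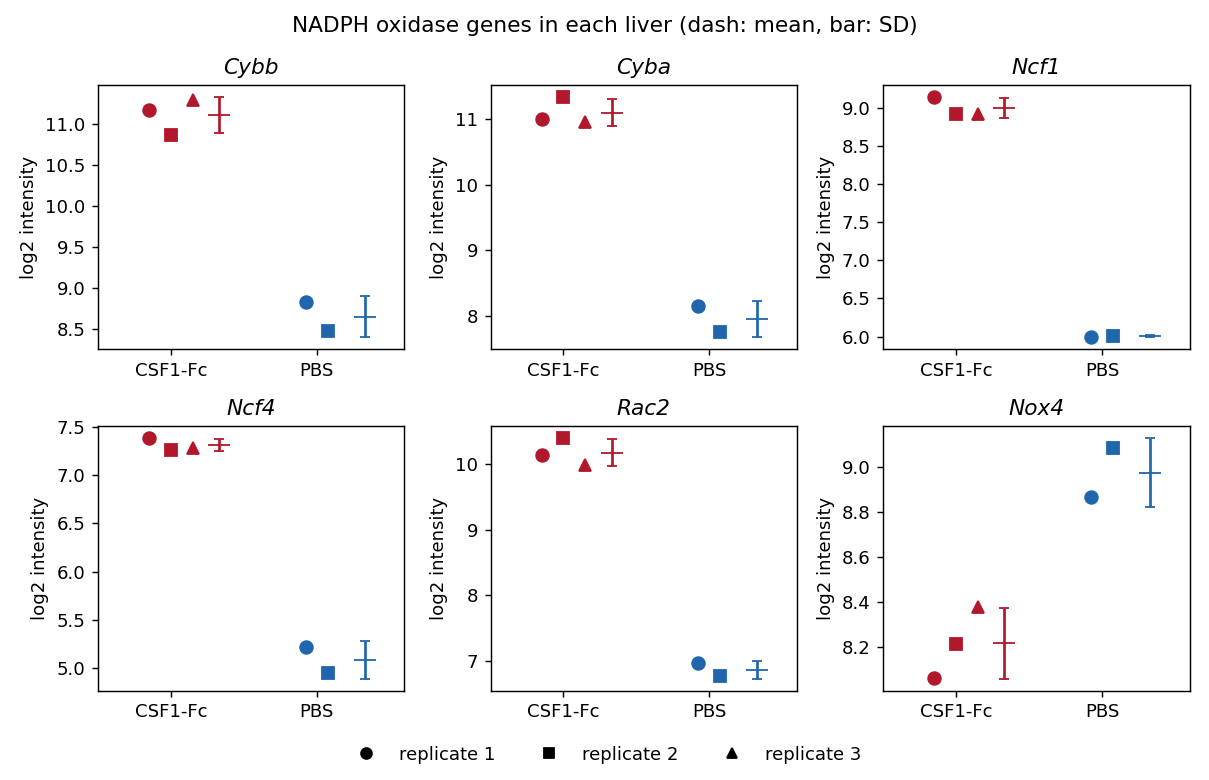
Log2 intensity of each measured oxidase gene in every liver, CSF1-Fc (red, n = 3 mice) and PBS (blue, n = 2 mice), with the mean and SD beside the points; each panel has its own vertical scale, which does not start at 0. The 5 phagocyte genes lie above PBS in all CSF1-Fc livers and Nox4 lies below.

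*Cybb* encodes gp91phox, the catalytic subunit that carries the flavin and the haems. Its log2 intensity was 11.16, 10.86 and 11.29 in CSF1-Fc livers, against 8.82 and 8.47 in PBS livers. All treated livers stood at least 2 log2 units above both PBS livers. The means were 11.10 ± 0.222 (SD, n = 3) with CSF1-Fc and 8.65 ± 0.250 (SD, n = 2) with PBS. The log2 fold change was 2.46 ± 0.187 (SE, limma), a 5.50-fold difference with a 95% interval of 2.01 to 2.91 on the log2 scale and an adjusted p of 0.000709. On the linear scale of the deposited values these were intensities of 2295, 1857 and 2504 with CSF1-Fc, against 453 and 354 with PBS.

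*Cyba* encodes p22phox, which stabilises gp91phox and carries the docking site for p47phox. Its log2 intensity was 10.99, 11.33 and 10.95 in CSF1-Fc livers and 8.16 and 7.76 in PBS livers. The groups were again far apart. The log2 fold change was 3.13 ± 0.189 (SE), which is 8.77-fold, with a 95% interval of 2.68 to 3.59 and an adjusted p of 0.000426 in limma.

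*Ncf1* encodes p47phox, the organiser that carries the cytosolic subunits to the membrane once it is phosphorylated. It measured 9.14, 8.91 and 8.91 in CSF1-Fc livers, against 5.99 and 6.01 in PBS livers, on the log2 scale. The PBS livers were nearly equal to each other, as were CSF1-Fc replicates 2 and 3. *Ncf1* rose by 2.99 ± 0.136 log2 units (SE), or 7.93-fold, with an adjusted p of 0.000358 in limma. In people NCF1 has near-identical pseudogenes, and whether other sequences contribute to this mouse row was not tested.

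*Ncf4* encodes p40phox, which binds phosphatidylinositol 3-phosphate on the phagosome. It measured 7.38, 7.26 and 7.28 with CSF1-Fc, against 5.22 and 4.95 with PBS. The treated livers were close to each other, with an SD of 0.0641 (n = 3). Its log2 fold change of 2.22 ± 0.141 (SE), 4.66-fold with an adjusted p of 0.000450 in limma, was the smallest of the 5.

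*Rac2* encodes the GTPase of blood cells that switches the assembled enzyme on. Its log2 intensity was 10.13, 10.39 and 9.98 in CSF1-Fc livers and 6.97 and 6.77 in PBS livers. The log2 fold change was 3.30 ± 0.166 (SE), 9.83-fold with an adjusted p of 0.000358 in limma, and it ranked 57th from the top among all 18820 named genes. *Cyba* ranked 79th, *Ncf1* 105th, *Cybb* 264th and *Ncf4* 363rd in the same order. Replicate 2 of the CSF1-Fc livers had the highest value of its group for *Cyba* and *Rac2* and the lowest for *Cybb* and *Ncf4*, so the 5 genes did not share 1 order among the treated mice.

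The other GTPases of the family differed in size of change. *Rac1*, which is found in nearly all cells, measured 10.61, 10.48 and 10.52 with CSF1-Fc, against 10.31 and 10.42 with PBS. Its log2 fold change of 0.17 did not pass the test, with an adjusted p of 0.489 in limma. *Rac3*, best known from the nervous system, measured 7.18, 7.37 and 6.67 with CSF1-Fc, against 5.62 and 5.25 with PBS, and was higher by 1.64 log2 units with an adjusted p of 0.00952. Without PBS replicate 2 the adjusted p of *Rac3* was 0.0866. No test was made between *Rac1*, *Rac2* and *Rac3*.

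*Cybc1* encodes Eros, the chaperone of the endoplasmic reticulum that gp91phox and p22phox need to reach the membrane. It measured 7.73, 7.33 and 7.53 in CSF1-Fc livers, against 6.51 and 6.41 in PBS livers. It was higher by 1.07 log2 units, 2.09-fold, with an adjusted p of 0.0103 in limma. The adjusted p was 0.0667 without PBS replicate 1 and 0.0983 without PBS replicate 2.

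Of the 14 other oxidase family genes listed, 11 had a row, and *Rac3* and *Cybc1* were the 2 that passed the test. The median log2 fold change of the 11 was 0.00, beside -0.08 over all named genes. None of the 11 was called lower, and at an unadjusted p under 0.05 the count of lower genes was also 0. *Rap1a*, a small GTPase found with cytochrome b558, had a log2 fold change of 0.29, and *Poldip2*, a partner of p22phox in *Nox4* complexes, one of -0.21. The catalytic subunits of other tissues, *Nox1*, *Nox3*, *Duox1* and *Duox2*, and the helper proteins *Noxo1* and *Duoxa2* had log2 fold changes between -0.33 and 0.07, with none past the test. The rows of these subunits and helpers were dim, with both group means under 5 on the log2 scale, so their lack of a call says little. The median of the 11 rests on them in part. *Noxa1* and *Duoxa1* had no row of their own.

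**Figure D2:**
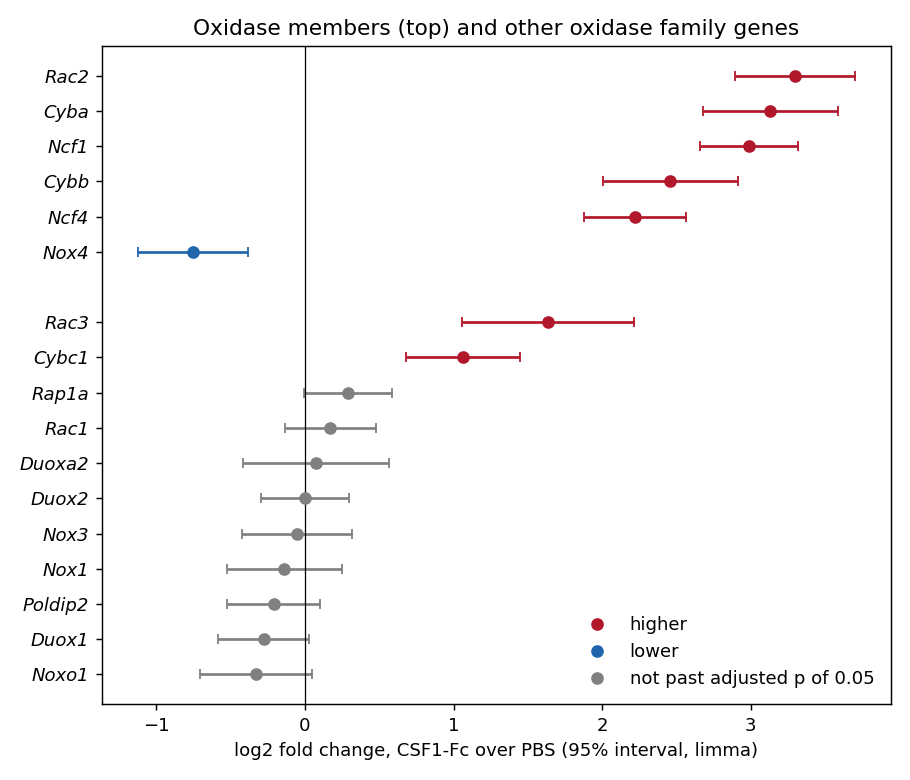
Log2 fold change of CSF1-Fc over PBS (horizontal axis) with 95% intervals from limma for the 6 measured oxidase members and 11 other genes of the oxidase family (3 CSF1-Fc and 2 PBS livers). The 5 phagocyte members lie between 2.22 and 3.30, Rac3 and Cybc1 between 1.07 and 1.64, and Nox4 at -0.76.

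*Nox4* moved the other way. Its log2 intensity was 8.06, 8.21 and 8.38 in CSF1-Fc livers, against 8.86 and 9.08 in PBS livers. All treated livers were below both PBS livers, with a gap of under 0.5 log2 units between the nearest mice. The means were 8.22 ± 0.157 (SD, n = 3) with CSF1-Fc and 8.97 ± 0.154 (SD, n = 2) with PBS. The log2 fold change was -0.76 ± 0.153 (SE), with a 95% interval of -1.13 to -0.38 and an adjusted p of 0.0318 in limma, which is 1.69-fold higher in PBS livers.

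This call depended on single mice. Leaving out PBS replicate 1 gave *Nox4* an adjusted p of 0.108, and leaving out PBS replicate 2 gave 0.237. Among the treated mice the values were 0.119 with replicate 1 removed, 0.0638 with replicate 2 removed and 0.0305 with replicate 3 removed, so that this last fit alone kept the call. The log2 fold change stayed between -0.86 and -0.65 in these fits. With arrays centred on 31 liver secreted proteins, which moves the median of all named genes up by 0.32 log2 units, it was -0.43 with an adjusted p of 0.180. Over the 16 alternatives to the fit, the adjusted p of *Nox4* ran from 0.00509 to 0.237, and its direction was kept in all of them.

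Markers of the liver cells in which *Nox4* is known were read beside it. For comparison, 8.34% of all named genes were called higher and 3.95% lower. The 31 secreted proteins of hepatocytes had a median log2 fold change of -0.19, with 0 called in limma and, at an unadjusted p under 0.05, 0 higher and 3 lower. Their mean log2 level was 12.02 to 12.29 in CSF1-Fc livers and 12.38 to 12.40 in PBS livers. The 10 stellate cell markers had a median of -0.32 with mean levels of 6.97 to 7.25 against 7.30 to 7.31. Among them *Acta2*, the smooth muscle actin, was higher by 1.99 log2 units and none was called lower, although at an unadjusted p under 0.05 the count of lower markers was 4. The 10 liver endothelial markers had a median of -0.37 and mean levels of 8.07 to 8.35 with CSF1-Fc against 8.24 to 8.35 with PBS. *Cdh5*, the cadherin of endothelial junctions, was higher by 1.38 log2 units and *Clec4g*, a lectin of sinusoidal endothelium, fell by 0.74. Both of these calls ended when either PBS mouse was left out, and that of *Clec4g* also with CSF1-Fc replicate 1 removed (0.0598 to 0.160 in these fits). With CSF1-Fc replicate 3 removed 3 stellate and 4 endothelial markers were called lower. The part of any of these cells in the level of *Nox4* was not tested.

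The sizes of change were also set against that of *Cybb* within each liver. The intervals come from limma with a standard error shared by all rows, a limit described below. *Cyba* minus *Cybb* was -0.17, 0.47 and -0.34 in CSF1-Fc livers, against -0.67 and -0.71 in PBS livers. The difference of log2 fold changes was 0.67, with a 95% interval of 0.05 to 1.30. *Rac2* minus *Cybb* was -1.03, -0.47 and -1.31 with CSF1-Fc, against -1.85 and -1.69 with PBS, a difference of 0.84 with an interval of 0.21 to 1.46. In both pairs replicate 2 was the highest treated liver. *Ncf1* exceeded *Cybb* in change by 0.53 (-0.10 to 1.15) and *Ncf4* differed from it by -0.24 (-0.86 to 0.39), so the intervals of both included no difference. Other settings moved these: *Ncf1* passed the test with array weights (0.62, adjusted p of 0.0143) and with the replicate number as a block (0.66, 0.0144), and *Ncf4* with 16 added before log2 (-0.61, 0.0208), out of adjusted p-values of 0.0143 to 0.382 for *Ncf1* and 0.0208 to 0.696 for *Ncf4* over 16 alternatives in limma. *Nox4* differed from *Cybb* by -3.21 (-3.84 to -2.59).

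By the limma adjusted p, 3 of the 5 members changed by another amount than *Cybb*, which were *Nox4* (1.79e-22), *Rac2* (0.00878) and *Cyba* (0.0355). In the same test 97.6% of all named genes passed. Every row in it carries the noise of the *Cybb* row, and limma gave all of them the same standard error of 0.319. These p-values are therefore too small. The intervals above use that same standard error, so those of *Cyba* and *Rac2* do not establish a difference from *Cybb*. With each row's own variance *Nox4* alone passed, with an adjusted p of 0.128 for *Cyba* and 0.0835 for *Rac2*. The call of *Rac2* also ended without PBS replicate 1 (0.0596) or CSF1-Fc replicate 2 (0.0512), and that of *Cyba* ended without either PBS replicate, CSF1-Fc replicate 1 or CSF1-Fc replicate 2 (0.0579 to 0.166).

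**Figure D3:**
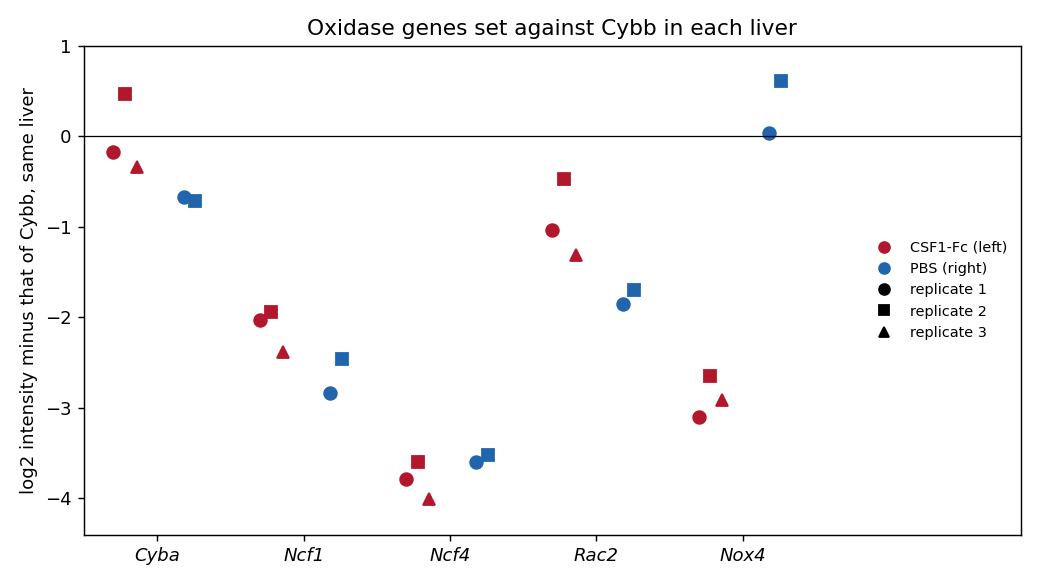
Log2 intensity of each member minus that of Cybb in the same liver (vertical axis), CSF1-Fc livers (red, left of each pair, n = 3) and PBS livers (blue, right, n = 2). Only the shift between the colours within a gene is a comparison: it is -3.21 for Nox4 and between -0.24 and 0.84 for the others.

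The genes whose pattern over the 5 livers came nearest to *Cybb* were found by the root mean square difference between log2 values, each centred on the mean of the PBS livers. They were *Oas2* (0.0677), an interferon-induced synthetase, *Sash3* (0.0680), an adaptor of lymphocytes, *Prkcb* (0.0862), a protein kinase C that phosphorylates p47phox, *Marcks* (0.107), an actin-binding substrate of protein kinase C, and *Pram1* (0.109), an adaptor of myeloid cells. *Oas2* measured 8.80, 8.37 and 8.78 with CSF1-Fc, against 6.40 and 5.92 with PBS. *Prkcb* measured 8.19, 7.96 and 8.38, against 5.80 and 5.42. Both had the lowest treated value in replicate 2, as *Cybb* had. Among the members, *Ncf4* was 109th nearest (0.227), *Ncf1* 359th (0.450), *Cyba* 497th (0.588), *Rac2* 619th (0.706) and *Nox4* 18071st (2.50).

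Genes around the oxidase were read in 7 lists of 123 genes, the oxidase family above included. Of these genes 111 were measured, 37 were higher and 3 lower, with 71 not past the test. Over all named genes 8.34% were higher and 3.95% lower, the shares to set beside this count and those of the lists below. The signals that assemble the enzyme stood out in their counts. This list includes *Itgam*, which the study names among macrophage-specific genes. Macrophage markers, read below, had a median log2 fold change of 2.30. Whether any rise is particular to the assembly signals was not tested. Of 24 listed, 22 had a row and 21 were higher, with a median log2 fold change of 2.56 beside -0.08 over all named genes. Leaving out a mouse left 18 to 21 of them higher, and 10 were higher without variance moderation. *Mapk14*, the stress kinase p38 alpha, was the exception, with a log2 fold change of -0.14 that did not pass. *Pak1* and *Arhgdia* were not measured.

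*Fcgr1*, the high-affinity receptor for IgG, had the largest change of the list. It measured 9.64, 9.42 and 9.39 in CSF1-Fc livers, against 6.06 and 5.58 in PBS livers, a rise of 3.66 log2 units with an adjusted p of 0.000358 in limma. *Fcgr3*, another activating IgG receptor, measured 10.80, 11.08 and 10.43 with CSF1-Fc, against 7.92 and 7.38 with PBS, and rose by 3.12. Both receptors signal through the common chain *Fcer1g* to the kinase *Syk*. *Pla2g4a*, the cytosolic phospholipase that releases arachidonic acid, measured 8.79, 8.81 and 9.06 with CSF1-Fc, against 5.51 and 5.67 with PBS, and rose by 3.30. *Vav1*, the exchange factor that loads Rac with GTP in blood cells, measured 8.64, 8.39 and 8.61, against 5.68 and 5.65, and rose by 2.88. All 4 stayed higher when any mouse was left out.

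The transcription factors that bind oxidase promoters split into a rising few and a rest that did not pass. Of 13 listed, 11 were measured and 3 were higher, with a median of 0.15. *Spi1*, which encodes PU.1, measured 10.43, 10.66 and 10.26 in CSF1-Fc livers, against 7.37 and 6.86 in PBS livers, and rose by 3.33 log2 units with an adjusted p of 0.000440 in limma. *Irf8*, a myeloid partner of PU.1, rose by 2.26 and *Runx1*, a factor of blood cell development, by 2.05. These 3 calls held with each mouse left out.

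**Figure D4:**
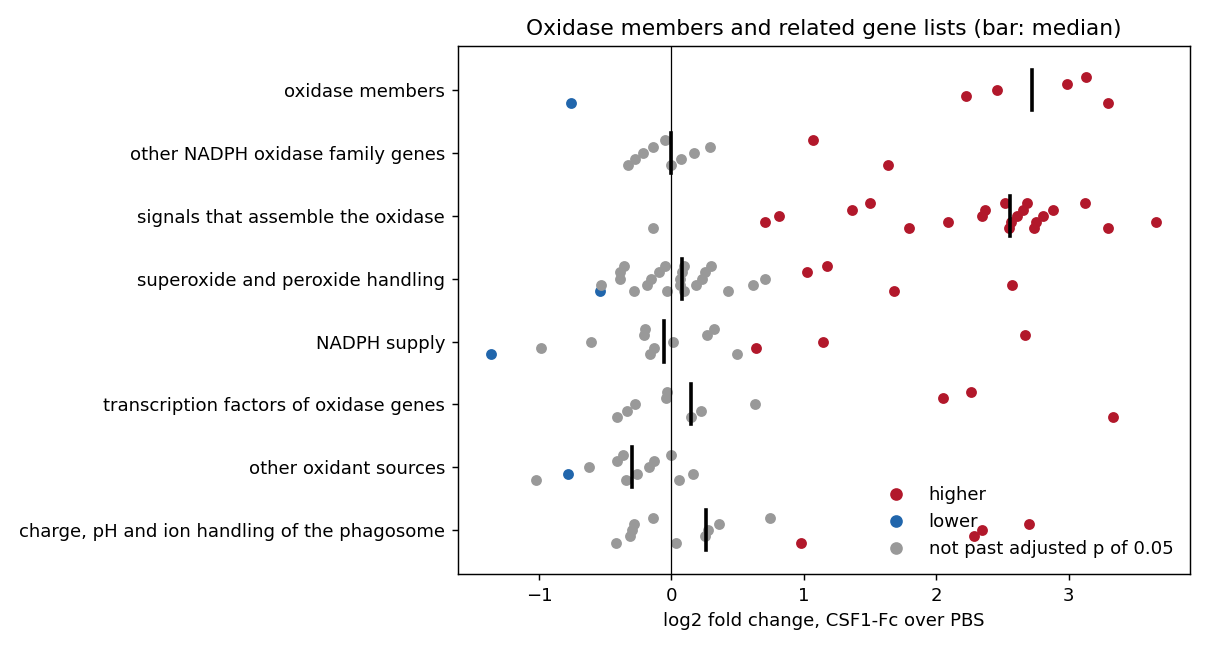
Log2 fold change of CSF1-Fc over PBS (horizontal axis) for each measured gene of the oxidase members and of the 7 lists around them; points are spread vertically only to separate them, and bars mark medians. The members and the assembly signals lie mostly above 2, with medians of 2.56 for the signals and between -0.30 and 0.26 for the other lists.

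Genes of superoxide and peroxide handling, a list wider than the enzymes that remove them, mostly did not pass the test. The list also holds *Hmox1*, *Mpo* and regulators. Of 27 measured out of 29, 4 were higher and 1 lower, with a median of 0.08. *Gpx3*, a secreted glutathione peroxidase, measured 9.97, 9.86 and 9.58 with CSF1-Fc, against 7.49 and 6.97 with PBS, and rose by 2.57 log2 units. *Hmox1*, the inducible haem oxygenase, measured 9.62, 9.70 and 9.62, against 8.14 and 7.79, and rose by 1.68. These calls held with each mouse left out. *Mpo*, the neutrophil enzyme that uses peroxide to make hypochlorous acid and so consumes the product of the oxidase, was higher by 1.17, and *Gpx7*, a peroxidase of the endoplasmic reticulum, by 1.02. Their adjusted p was 0.0362 and 0.0294, and both lost the call when either PBS mouse or CSF1-Fc replicate 1 was removed, and *Mpo* also when replicate 3 was (0.0548 to 0.179 in these fits). *Sod2*, the mitochondrial superoxide dismutase, named after its value was seen as the single lower gene, was at -0.54 with an adjusted p of 0.0420, and no gene of the list was lower once any mouse was left out.

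The list of NADPH supply, the cofactor the oxidase consumes, held 14 measured genes of 15, with 3 higher, 1 lower and a median of -0.06. Malic enzymes went in opposite directions. *Me2*, the mitochondrial form that works mainly with NAD, measured 8.98 and 8.90 in CSF1-Fc replicates 1 and 2, with replicate 3 slightly above both, against 6.43 and 6.15 with PBS, and rose by 2.67 log2 units with an adjusted p of 0.000374 in limma. *Me1*, the cytosolic NADP-dependent form abundant in hepatocytes, measured 8.85, 8.77 and 9.21, against 10.33 and 10.28, and fell by 1.36 with an adjusted p of 0.00479. Both calls held with each mouse left out. *Pgd* and *Taldo1* of the pentose phosphate pathway were higher by 1.15 and 0.64, with an adjusted p of 0.0428 and 0.0277, but *Pgd* kept its call only without CSF1-Fc replicate 2 and *Taldo1* only without CSF1-Fc replicate 3. *G6pdx*, the first enzyme of that pathway, was not measured.

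In the phagosome list, which covers pH, charge and ions, 14 genes of 14 were measured, 4 were higher and the median was 0.26. *Slc11a1*, the metal transporter of the phagosome membrane known as Nramp1, measured 10.86, 10.74 and 10.85 in CSF1-Fc livers, against 8.25 and 7.99 in PBS livers, and rose by 2.70 log2 units. *Coro1a*, an actin-binding protein of blood cells that binds p40phox, rose by 2.28. *Atp6v0d2*, a proton pump subunit of macrophages and osteoclasts, was higher by 2.35, with an adjusted p of 0.00573 that was 0.0509 without PBS replicate 1. *Clcn5*, a chloride and proton exchanger, was higher by 0.98 and kept its call in 1 of these 5 fits, the one that left out CSF1-Fc replicate 2.

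Other oxidant sources showed no gene higher, at the adjusted threshold or at an unadjusted p under 0.05, among 12 measured of 14. At that unadjusted p 5 of the 12 were lower, and 1 was called lower at the adjusted threshold. The list also holds *Arg1*, which makes no oxidant and competes with nitric oxide synthase for arginine. Its median was -0.30. *Nos2*, the inducible nitric oxide synthase of activated macrophages, measured 3.50, 3.71 and 3.52 with CSF1-Fc, against 3.44 and 3.39 with PBS, a log2 fold change of 0.16 with an adjusted p of 0.538 in limma. *Hao1*, a peroxisomal hepatocyte oxidase that makes hydrogen peroxide, fell by 0.78 with an adjusted p of 0.0214, and this call ended on removal of PBS replicate 1 (0.152), its partner (0.123) or the first treated mouse (0.0956). *Nos2* was chosen for mention after its value was seen, as was *Arg1*. The *Nos2* row was dim, under 5 on the log2 scale in every liver, so its lack of a call says little.

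Markers of macrophages, monocytes and neutrophils were mostly higher. Those of eosinophils and B cells, which also have the enzyme, had low levels and mostly did not pass. The share of all named genes called higher, 8.34%, is to be set beside the counts here and in the next paragraph. All 12 macrophage markers were higher, with a median log2 fold change of 2.30 and mean log2 levels of 10.06 to 10.11 in CSF1-Fc livers against 7.78 to 7.96 in PBS livers. *Adgre1*, which encodes F4/80, measured 11.18, 11.03 and 11.06 with CSF1-Fc, against 8.44 and 8.50 with PBS. All 10 Kupffer cell markers were higher, with a median of 2.33, and so were all 7 measured markers of inflammatory monocytes, with a median of 2.95 and mean levels of 7.07 to 7.62 against 4.48 to 4.52. *Ccr2*, the chemokine receptor of these monocytes, rose by 3.58 log2 units. With 1 mouse left out, 10 to 12 of the macrophage, 9 to 10 of the Kupffer cell and 4 to 7 of the monocyte markers were higher, the fewest monocyte markers without either PBS mouse or without CSF1-Fc replicate 1. With each row's own variance in place of limma's shared one, 4 macrophage, 5 Kupffer cell, 1 monocyte and 1 neutrophil marker were higher.

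Of 14 neutrophil markers, 11 were higher, with a median of 1.94 and mean levels of 6.42 to 6.67 against 4.23 to 4.67. *S100a8* measured 9.06, 9.41 and 8.74 in CSF1-Fc livers, against 5.92 and 4.29 in PBS livers, while 3 genes of granule proteins, *Elane*, *Fcnb* and *Ltf*, did not pass. Other granule protein genes of the list did, among them *Ngp* at 3.21, *Prtn3* at 2.19, *Ctsg* at 0.93 and *Camp* at 0.73. With 1 mouse left out, 7 to 11 of them were higher, the fewest without PBS replicate 2 or CSF1-Fc replicate 1. *Ly6g* was not measured. Of 9 B cell markers 3 were higher, with a median of 0.43, and *Cd79b*, a chain of the B cell receptor complex, rose by 1.89. Of 7 eosinophil markers 1 was higher, with a median of 0.37 and mean levels of 4.32 to 4.64 against 4.04 to 4.07. The B cell list had mean levels of 5.15 to 5.23 against 4.52 in both PBS livers. These levels were near or under 5, so a missing call in either list says little. All CSF1-Fc values lay above both PBS values for 5 eosinophil and 6 B cell markers, as for 18.2% of named genes. T cell markers had 2 of 9 higher and NK cell markers 1 of 8. Leaving out a CSF1-Fc mouse left 1 to 2 higher among eosinophil and T cell markers and 0 to 1 among NK cell markers. At an unadjusted p under 0.05 in limma, 6 NK cell, 3 T cell, 4 B cell and 3 eosinophil markers were higher. In that test 1 T cell marker was lower. NK cell markers had mean levels of 4.28 to 4.58 against 3.76 to 3.93. For 7 of the 8 all CSF1-Fc values lay above both PBS values, so the missing calls do not show them unchanged. Log2 fold changes ran from 1.09 to 3.24 over the macrophage markers, 1.48 to 2.72 over the Kupffer cell markers, 1.11 to 4.14 over the monocyte markers and 0.02 to 4.17 over the neutrophil markers, beside 2.22 to 3.30 for the 5 phagocyte oxidase genes. *Rac2*, at 3.30 with an SE of 0.166, lay only just above the macrophage top of 3.24, which had an SE of 0.191. *Cyba*, *Ncf1* and *Rac2* lay above the Kupffer cell range. All 5 genes lay within the monocyte and neutrophil ranges. No test was made between the oxidase genes and the markers. The part of each cell type in them was not tested.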

How the data were processed

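Liver RNA from 3 CSF1-Fc and 2 PBS mice was amplified, biotin labelled and measured on 1 array per mouse. The deposited values are the authors' normalized intensity on a linear scale for 35556 rows. Quality control was in Affymetrix Expression Console 1.1, and Partek Genomics Suite was used by the authors. Their background correction and between-array normalization were, for the sources used here, not given. The labels name Trizol for RNA extraction and the methods RNA Bee. The bone marrow-derived macrophage arrays of the study were not used here.

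Log2 values, with no pseudocount or filter, entered a model with 1 mean per group (lmFit and eBayes of limma 3.58.1, R 4.3.3), with Benjamini-Hochberg adjustment over all rows. Residual degrees of freedom were 3 and prior degrees of freedom 3.34. The study names no test for the arrays. In the platform annotation 21218 rows carried 1 gene symbol, 1881 several and 12457 none. The brightest row of 1 symbol stood for a gene. Correlation of log2 values was 0.983 to 0.991 within groups and 0.960 to 0.973 across them, and median intensities were 31.1 to 33.0. Sequencing depth has no counterpart on arrays; precision is limited by how many there are.

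The members and all gene lists were chosen with earlier results of these data known. The text names every member and every other oxidase family gene, and the 5 genes nearest to Cybb. It also names the 4 largest called changes, or all where fewer were called, of each further list around the oxidase. The markers of cell types that are named did not all follow that rule and are not always the largest changes of their list. Genes named otherwise were chosen after their values were seen. The fit was repeated with single mice removed, with a block for the replicate number, and with other normalizations, row filters, pseudocounts, variance models and thresholds. The fit was tested on simulated data.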

Additional observations from a re-analysis of the deposited data

How the results depend on the processing

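Cybb, Cyba, Ncf1, Ncf4 and Rac2 were higher under each of the 16 alternatives to the fit except Cybb without variance moderation (adjusted p of 0.0549, over alternatives from 1.57e-05). Their log2 fold changes ran from 1.80 for Ncf4 with 16 added before log2 to 3.62 for Rac2. No direction reversed. The count of members lower was 0 when arrays were centred on liver secreted proteins, without moderation, with the replicate block and at an adjusted p under 0.01, and 0 to 1 with each mouse left out. The count differing in change from Cybb was 1 without moderation, 1 to 3 with each mouse left out, 2 and 4 at an adjusted p under 0.01 and 0.1, and 4 with the replicate block, array weights or 16 added before log2, beside 3. Related genes higher were 15 without moderation, beside 37. Related genes lower, 3 in the fit reported, were 6 with rows of 1 symbol only, 1 centred on secreted proteins, 5 with dim rows (mean log2 under 5) left out, 5 with 16 added, 1 without moderation, 11 with array weights, 1 at an adjusted p under 0.01, 6 at 0.1 and 1 to 4 with each mouse left out. Of all calls 67.9% were higher, 91.4% when centred on secreted proteins and 50.9% with array weights. The causes were not tested.

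The labels do not say that replicate numbers pair the mice. Deviations of same-numbered mice correlated at -0.07 and -0.25. With 2 PBS mice, whose deviations mirror each other, these values are not independent and cannot exclude a pairing. With the replicate block, over 4 arrays, Nox4 changed by -0.83 with an adjusted p of 0.0558 (0.00509 to 0.237 over alternatives), the 5 other members stayed higher, and the calls over all named genes were 1181 higher and 481 lower.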
